A study of Arabidopsis thaliana with 12 samples.

Results

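The glucose response described here is that of wild-type Arabidopsis thaliana seedlings of the accession Col-0. RNA sequencing libraries of seedlings given 15 mM glucose for 2 h were set against libraries of seedlings left without glucose. These are 6 of the 12 libraries of the series, 3 per condition, and the comparison covers all 19522 genes of the table. All seedlings were 4 days old and had grown in liquid half-strength Murashige and Skoog medium without glucose under 12 h of light and 12 h of dark. The treatment label names glucose for all 12 libraries, so the conditions were taken from the library titles. The other 6 libraries come from ein2-5, a mutant of the ethylene signalling gene EIN2 under the same conditions. They share the estimate of the spread and are otherwise used only at the end. Levels are in CPM, read counts scaled to a common library total, and are not corrected for gene length, so they are compared between libraries and not between genes.

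Sugars feed a seedling and also act as signals. When carbon runs short, the kinase SnRK1 switches on genes that break down stores, amino acids, lipids and wall polymers, whereas glucose, through hexokinase and the kinase TOR, favours protein synthesis and growth. Here transcripts were read in seedlings held in the medium without sugar, with or without glucose for 2 h. These data hold no measure of kinase activity.

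The 6 libraries held between 13816530 and 17461274 reads, and pairs of libraries within a condition had Pearson r between 0.986 and 0.994 across genes. Whether the 3 libraries of each condition stem from separate cultures is not stated in the labels. The p-values therefore reflect how far libraries of the same group differ, those of ein2-5 included, and part of that may be technical. Pairs within the ein2-5 groups had Pearson r between 0.969 and 0.992. Both shoot and root markers were present. The summed level of 5 green shoot markers was 29029 to 30115 CPM in the starved libraries and 23970 to 25195 CPM in the glucose libraries, with 0 called higher and 1 lower, and 3 lower in edgeR. That of 8 root and root hair markers was 125 to 134 CPM and 115 to 136 CPM, with 5 called higher and 1 lower. The part of these shifts in the results was not tested. Seed storage and late embryo markers, 13 in number, summed to 165 CPM in the first library without glucose and to between 1.20 and 6.01 CPM in the other 5, and 0 of the 13 passed the limma test between the conditions. Their part in the results was not tested. Counts without that library are given for oil breakdown genes only. Other lists changed too: without it 5 heat shock factors rose and 6 fell, and 9 starch synthesis genes rose and 1 fell. In seedling RNA, fewer cells of a type and less RNA per cell cannot be told apart.

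Glucose changed the level of most genes within 2 h, and the largest changes were falls. Rises outnumbered falls in the values as deposited, whereas DESeq2 on recovered reads called 5717 genes higher and 5853 lower. Of the 19522 genes, 60.3% were called, that is, had an adjusted p under 0.05 in limma with Benjamini-Hochberg adjustment. Genes called higher made up 40.6% and genes called lower 19.7%, and those with a log2 change of at least 1 made up 12.1% and 6.04%. Counts of list members below are to be read beside these shares. At a log2 change of 3 or more, 45 genes were called higher and 130 lower. At 5 or more the numbers were 3 and 16. All log2 changes were computed from log2(CPM + 1), so for genes of low level they come out too small. The libraries of the conditions did not overlap in 70.0% of genes. The median log2 change of all genes was 0.19 as deposited and 0.01 after TMM scaling, a correction for library composition. TMM called 30.6% of genes higher and 29.9% lower, so list medians are given below relative to that of all genes. Since that scaling shifts nearly all genes down, the 3850 genes called lower were called lower under both, and 5969 of those called higher remained.

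**Figure D1:**
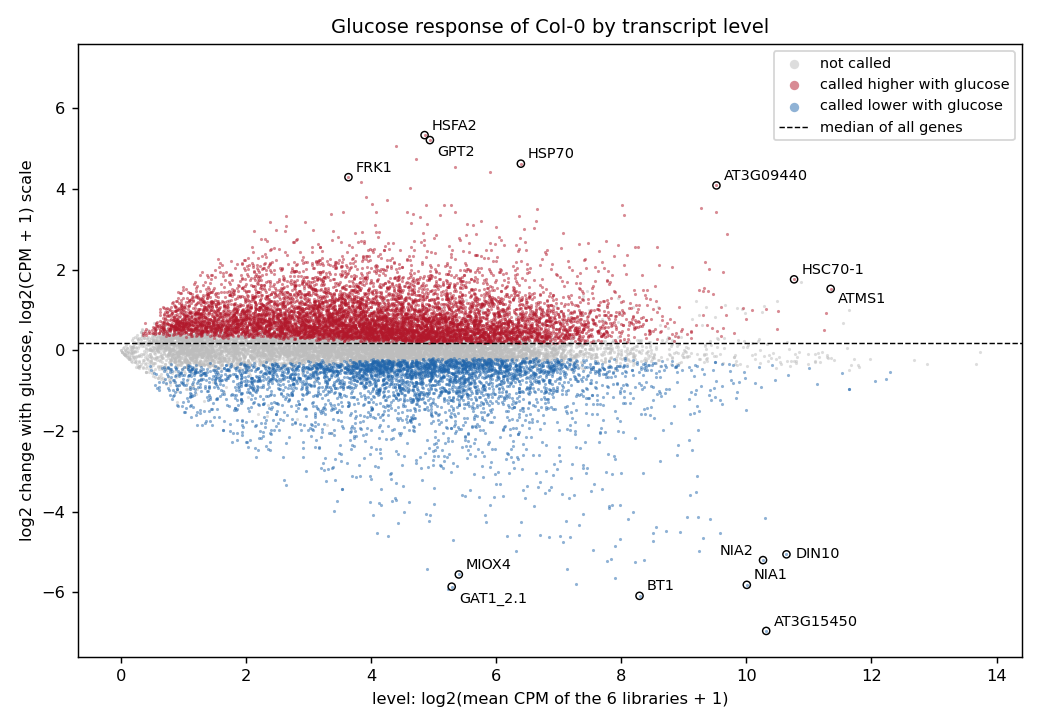
Each point is a gene: the x axis is its level, log2 of the mean CPM of the 6 Col-0 libraries plus 1, and the y axis its log2 change with glucose. Red and blue points passed the limma test at an adjusted p under 0.05, grey points did not, and the dashed line is the median of all genes at 0.19. AT3G15450, at −6.96, lies lowest of the labelled genes, and HSFA2, at 5.34, highest.

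The transcript pool itself was redistributed. Genes called lower by log2 1 or more held between 13.4% and 14.5% of a library's reads without glucose and between 3.35% and 3.53% with it. Genes called higher by that size went from between 4.34% and 4.71% to between 13.2% and 14.3%. Both sets were chosen by their change in these same libraries, so the direction of these shifts was fixed by the choice. Summed over all genes, 21.1% of the reads moved from one gene to another. The largest single loss was that of DIN10, of the raffinose synthase family, which stood at 2755, 3186 and 3333 CPM without glucose and at 67.4, 73.0 and 155 CPM with it. AT3G15450, annotated as an aluminum induced protein, went from 2245, 2532 and 2791 CPM to 8.33, 15.9 and 51.3 CPM. Both genes were separated by an order of magnitude or more in every library, and the third glucose library was the highest of its group for both. The largest gain was that of ATMS1, a methionine synthase, from 1314 to 1362 CPM without glucose to between 3744 and 3956 CPM with it. The other 9 of the 10 largest gains were the chaperone genes HSC70-1, AT3G09440, HSP81-2 and HSP81-3, the RNA-binding protein gene GRP7, the elongation factor gene LOS1, and MTO3, HOG1 and SAHH2 of the S-adenosylmethionine cycle.

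Among genes with a symbol, the deepest falls included nitrogen and amino acid genes. BT1, a BTB and TAZ domain scaffold protein, was at 526, 641 and 679 CPM without glucose and at 6.43, 6.51 and 12.1 CPM with it, a log2 change of −6.09 ± 0.21 (SE; limma adjusted p = 2.42e-10). GAT1_2.1, a glutamine amidotransferase-like protein, was at 62.2, 82.2 and 82.6 CPM and then at 0.238, 0.507 and 0.200 CPM. MIOX4, an oxygenase that turns inositol into glucuronic acid, was at 81.3, 84.7 and 78.9 CPM and then at 0.893, 0.579 and 0.802 CPM. The rule that chose these genes required groups that did not overlap. At the other end stood HSFA2, a heat shock transcription factor, at 0.214, 0.115 and 0.630 CPM without glucose and 36.1, 44.7 and 85.5 CPM with it (log2 change 5.34 ± 0.39, limma adjusted p = 1.08e-07). Without glucose its first pair of libraries stood at or under the floor of 3 reads, which is 0.172 to 0.214 CPM there, so the size of its change depends on the pseudocount. GPT2, HSP70, APR1 and HSP90.1 followed, with log2 changes between 5.22 and 4.44.

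The sequences upstream of these genes are shown because the genes that fell shared short motifs more often than the table as a whole. Each is the 250 bases before the annotated gene start in the RefSeq annotation of TAIR10.1, 5′ to 3′ on the strand of the gene. Capitals mark matches, on either strand, to the motifs named for that gene. In MIOX4, upstream at chr4:13297445-13297694 on the plus strand, they mark the I-box GATAAG, known from light-regulated genes, and the sugar repressive element TTATCC and TATCCA element, known from sugar-repressed genes, the latter of rice. In BT1, at chr5:25335571-25335820 on the minus strand, they mark the I-box. In GAT1_2.1, at chr1:5181403-5181652 on the minus strand, they mark the TATCCA element and the ACGT core, the centre of sites that bZIP factors bind.
MIOX4: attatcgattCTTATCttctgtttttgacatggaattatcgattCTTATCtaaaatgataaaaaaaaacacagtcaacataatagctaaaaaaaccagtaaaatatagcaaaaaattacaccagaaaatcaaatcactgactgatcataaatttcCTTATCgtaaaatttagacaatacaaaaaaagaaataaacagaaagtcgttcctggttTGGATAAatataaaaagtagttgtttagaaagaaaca
BT1: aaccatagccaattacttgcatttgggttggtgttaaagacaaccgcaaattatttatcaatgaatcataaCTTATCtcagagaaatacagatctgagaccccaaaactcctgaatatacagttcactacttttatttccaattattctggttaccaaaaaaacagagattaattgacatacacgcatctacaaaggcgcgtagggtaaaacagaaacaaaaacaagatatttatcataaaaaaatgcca
GAT1_2.1: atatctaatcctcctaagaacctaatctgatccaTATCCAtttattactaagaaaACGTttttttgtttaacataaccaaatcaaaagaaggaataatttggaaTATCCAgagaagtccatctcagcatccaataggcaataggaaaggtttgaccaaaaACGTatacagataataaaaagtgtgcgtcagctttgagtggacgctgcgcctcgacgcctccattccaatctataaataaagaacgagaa

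The I-box occurred in 12.4% of the 19348 promoters that could be read, in 9.24% of those of genes called higher by log2 1 or more, in 22.7% of those called lower by that size and in 28.0% of those lower by log2 2 or more. The sugar repressive element gave 13.2%, 9.16%, 24.4% and 29.2% in the same order, and the TATCCA element 14.1%, 11.4%, 24.9% and 31.2%. These motifs overlap: TTATCCA holds both of the last, and CTTATCC holds the I-box and the sugar repressive element. At least 1 of the 3 was present in 28.6% of all promoters, in 23.5% of those of the genes that rose and in 43.9% of those of the genes that fell. The median A + T content of these windows was 68.8% over all genes, 68.8% for those that rose and 69.2% for those that fell. The ACGT core was found in 44.6% of all promoters and in 51.9% of those of falling genes. Among the 15 largest falls with a symbol, 6 held an I-box, against 0 of the 15 largest rises. A match is a description of letters, not evidence of a bound factor.

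**Figure D2:**
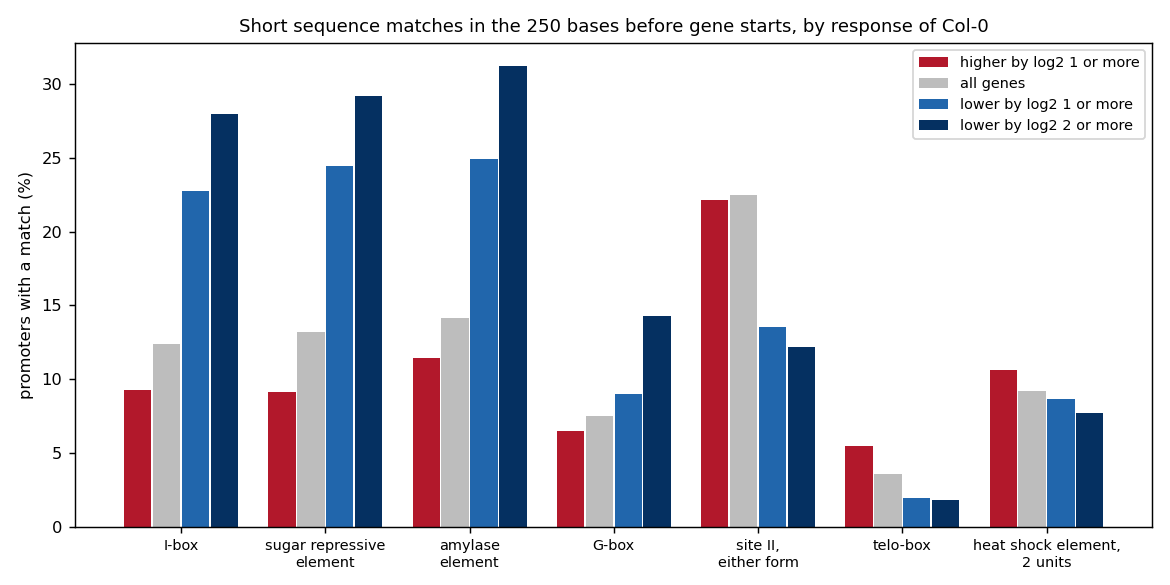
Bars give the percent of promoters, 250 bases before the gene start, with at least 1 match to each motif, for genes called higher by log2 1 or more, all genes, and genes called lower by log2 1 or 2 or more. The amylase element is the TATCCA element. I-box, sugar repressive element and TATCCA element reach 28.0%, 29.2% and 31.2% in the deepest falls, and site II elements 12.2% against 22.5% of all promoters.

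Promoters of rising genes are shown for HSFA2, at chr2:11135374-11135623 on the plus strand, with capitals for the heat shock element GAANNTTC and its 3-unit form, in which NNGAA follows, the site that heat shock factors bind. NOP56, a core protein of the box C/D particles that modify ribosomal RNA, is shown at chr1:20986953-20987202 on the minus strand, with capitals for the telo-box AAACCCTA and site II TGGGCC, known from ribosomal protein genes of Arabidopsis.
HSFA2: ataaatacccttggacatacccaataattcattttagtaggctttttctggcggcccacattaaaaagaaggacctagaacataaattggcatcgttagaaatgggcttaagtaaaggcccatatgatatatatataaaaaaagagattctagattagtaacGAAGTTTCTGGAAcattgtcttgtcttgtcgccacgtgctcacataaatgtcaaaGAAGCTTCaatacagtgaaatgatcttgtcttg
NOP56: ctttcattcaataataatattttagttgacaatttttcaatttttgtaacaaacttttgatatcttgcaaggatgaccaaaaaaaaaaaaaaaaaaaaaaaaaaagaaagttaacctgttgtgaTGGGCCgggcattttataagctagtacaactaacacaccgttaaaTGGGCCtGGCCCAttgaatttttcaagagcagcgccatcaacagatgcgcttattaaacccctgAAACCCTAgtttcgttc
The 3-unit heat shock element was rare, in 83 of all promoters (0.429%) and in 17 of those of genes called higher by log2 1 or more (0.718%). The 2-unit form was in 9.21% of all promoters and in 10.6% of those of genes called higher by that size. Of 18 promoters of cytosolic chaperones and partners, 2 held the 2-unit form and 1 the 3-unit form. Of 10 promoters of small heat shock proteins, 2 held each form. Site II, in either the form TGGGCC or TGGGCT, was present in 33 of 67 promoters of nucleolar and ribosomal RNA processing genes (49.3%), in 22.5% of all promoters, in 22.2% of those of genes called higher by log2 1 or more and in 13.6% of those of genes called lower by that size. The telo-box was present in 10.4% of the nucleolar promoters and 3.61% of all. It was in 5.45% of those called higher by log2 1 or more and 1.95% of those called lower by that size. Of the 15 largest rises with a symbol, 1 held it, the acid phosphatase gene PAP17. NOP56 is not among those 15.

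Within sugar signalling, genes of the same family moved apart. Trehalose 6-phosphate is a signal of sucrose status, made by TPS1 and removed by trehalose phosphate phosphatases, whereas the other TPS proteins have little known synthase activity. Of 8 measured TPS genes, 2 rose and 6 fell. The class II gene TPS5 was at 10.6, 8.99 and 10.7 CPM without glucose and at 82.2, 82.1 and 73.8 CPM with it, a log2 change of 2.86 ± 0.13 (limma adjusted p = 1.39e-09). TPS11 went the other way, from 245, 277 and 293 CPM to 2.86, 3.76 and 12.6 CPM. TPS8, TPS9 and TPS10 fell by 4.60, 4.75 and 3.38 on the log2 scale, and the synthase gene TPS1 rose from 31.5 ± 2.09 to 62.0 ± 5.98 CPM (SD, n = 3). None of these genes had overlapping libraries. Of 6 measured phosphatase genes, 5 rose and 0 fell, led by TPPE at 2.19 and TPPB at 1.98 on the log2 scale.

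SnRK1 is a complex of catalytic, beta and gamma subunits. The catalytic genes KIN10 and KIN11 had log2 changes of −0.20 and −0.79, of which KIN11 passed the test, and KIN10 did so after TMM scaling, at −0.41. The beta subunit gene AKINBETA1 was at 104, 111 and 114 CPM without glucose and at 6.43, 6.73 and 7.35 CPM with it. The gamma-type gene KING1 fell from 144 ± 2.95 to 31.5 ± 2.06 CPM. The fall of AKINBETA1 was the deepest of these 4, at −3.83 ± 0.10 (limma adjusted p = 2.5e-11). TOR and its partner RAPTOR1 did not pass, at 0.01 and 0.15, while RAPTOR2 rose by 1.21. The hexokinases HXK1 and HXK2, which bind glucose, rose by 0.72 and 0.82, and the hexokinase-like HKL1 fell by 0.77. Of the bZIP factors that act with SnRK1, 3 of 4 fell, with BZO2H3 from 114 ± 4.08 to 8.45 ± 2.66 CPM, and BZO2H1 rose by 0.87.

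**Figure D3:**
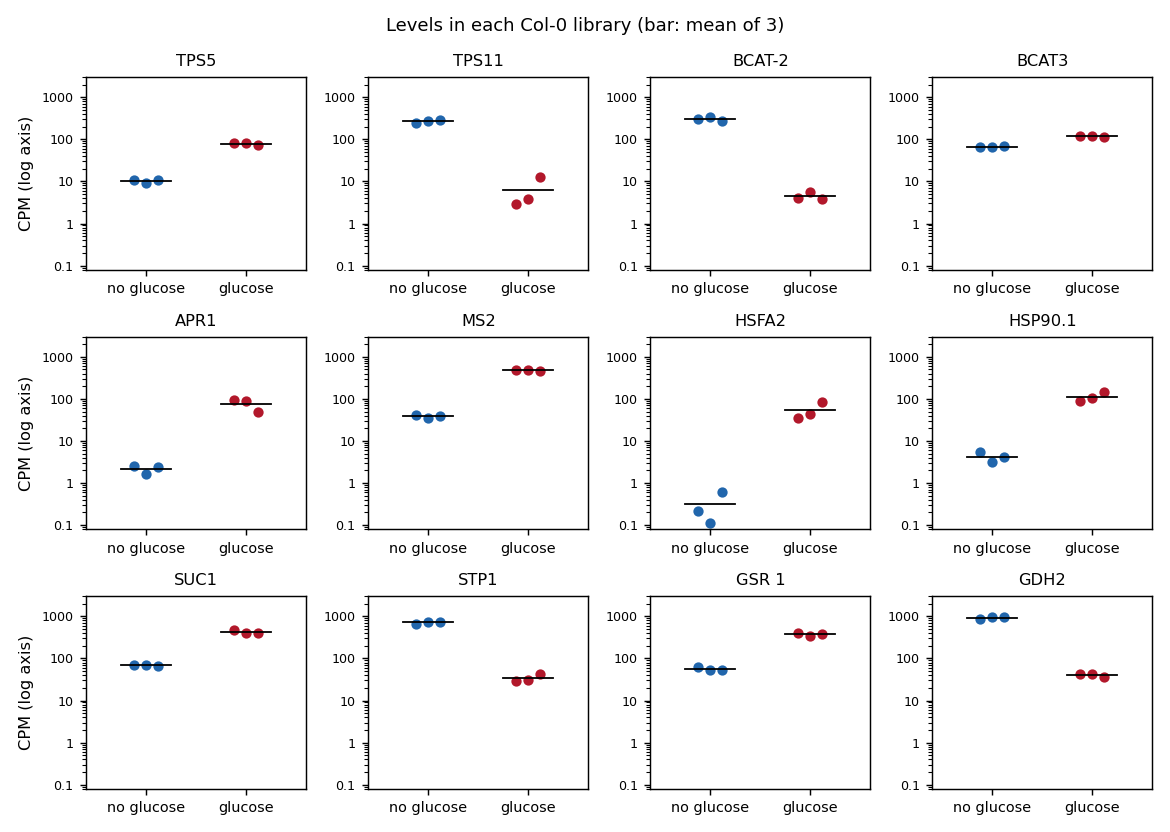
Levels of 12 genes in each of the 6 Col-0 libraries in CPM on a logarithmic axis, with 3 libraries without glucose in blue, 3 with glucose in red and a bar at each mean. Related genes moved in opposite directions, such as TPS5 (10.1 to 79.4 CPM on average) and TPS11 (272 to 6.39 CPM), and no library of one condition reached those of the other.

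Genes of carbon storage and transport changed in a divided way. Of 16 starch synthesis genes 11 rose and 1 fell. GBSS1, the starch synthase that makes amylose, was at 3.93, 3.72 and 4.30 CPM without glucose and at 40.9, 52.3 and 38.6 CPM with it. APL3, a large subunit of ADP-glucose pyrophosphorylase, rose from 2.93 ± 0.638 to 17.4 ± 0.605 CPM, while the leaf isoform APL1 did not pass at −0.10. Of 18 starch breakdown genes 9 rose and 3 fell. The cytosolic phosphorylase PHS2 rose from 238, 230 and 222 CPM to 1132, 1047 and 1009 CPM, and the beta-amylase-like BMY3 fell by 3.29 on the log2 scale. These 9 of 18, and 3 of 18, are close to the 40.6% and 19.7% called over all genes.

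Sugar carriers included 7 rises and 11 falls among 23 measured genes, that is 30.4% and 47.8% against 40.6% and 19.7% of all genes. The hexose uptake carrier STP1 was at 662, 750 and 743 CPM without glucose and at 29.5, 30.0 and 42.4 CPM with it. The sucrose carrier SUC1 moved in the opposite direction, from 71.1, 69.3 and 64.8 CPM to 467, 412 and 392 CPM. The phloem loader SUC2 fell by 1.17, the efflux carrier SWEET12 by 1.88 and the vacuolar SWEET2 by 3.42, and the vacuolar hexose carrier TMT2 rose by 1.67. Of the invertases, which cleave sucrose, the cytosolic CINV1 fell from 273 ± 6.06 to 49.8 ± 1.80 CPM, and its relative CINV2 rose from 15.2 to 48.1 CPM on average. The 6 sucrose synthase genes SUS1 to SUS6 had log2 changes between −0.18 and 0.04, and 0 of them passed in limma.

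Dark-inducible genes and most genes that break down branched-chain amino acids and lysine fell, and most genes that make branched-chain amino acids rose. Of 9 dark-inducible and dormancy genes all 9 fell, with a median 3.85 below that of all genes. Of 19 genes for the breakdown of branched-chain amino acids and lysine 14 fell and 0 rose, with 16 and 0 after TMM scaling. BCAT-2, the mitochondrial transaminase, was at 309, 334 and 271 CPM without glucose and at 4.11, 5.50 and 3.88 CPM with it. AT1G21400, an alpha subunit of the branched-chain keto acid dehydrogenase, fell by 5.17, its partners DIN4 and BCE2 by 3.86 and 4.25, and the next enzymes IVD and MCCA had log2 changes of −3.28 and −5.23. The quinone oxidoreductase ETFQO fell by 2.04, and BCAT-1 did not pass at −0.09. Of 12 genes that make branched-chain amino acids 9 rose and 0 fell, with 7 higher and 1 lower after TMM scaling. Their median lay 0.26 above that of all genes. The plastid transaminase BCAT3 went from 67.2 ± 3.08 to 117 ± 3.48 CPM, IMD3 rose by 0.88 and AT3G23940, the dihydroxyacid dehydratase step, by 1.06.

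Of 7 measured genes of proline and threonine metabolism 4 fell and 1 rose, with 5 and 1 after TMM scaling. The threonine aldolase THA1, which makes glycine and acetaldehyde from threonine, fell from 481, 495 and 417 CPM to 8.51, 7.89 and 8.55 CPM. The proline dehydrogenase ERD5 fell from 1127 ± 87.2 to 64.0 ± 7.95 CPM. The last enzyme of proline synthesis, P5CR, the 1 gene called higher, rose by 0.64.

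**Figure D4:**
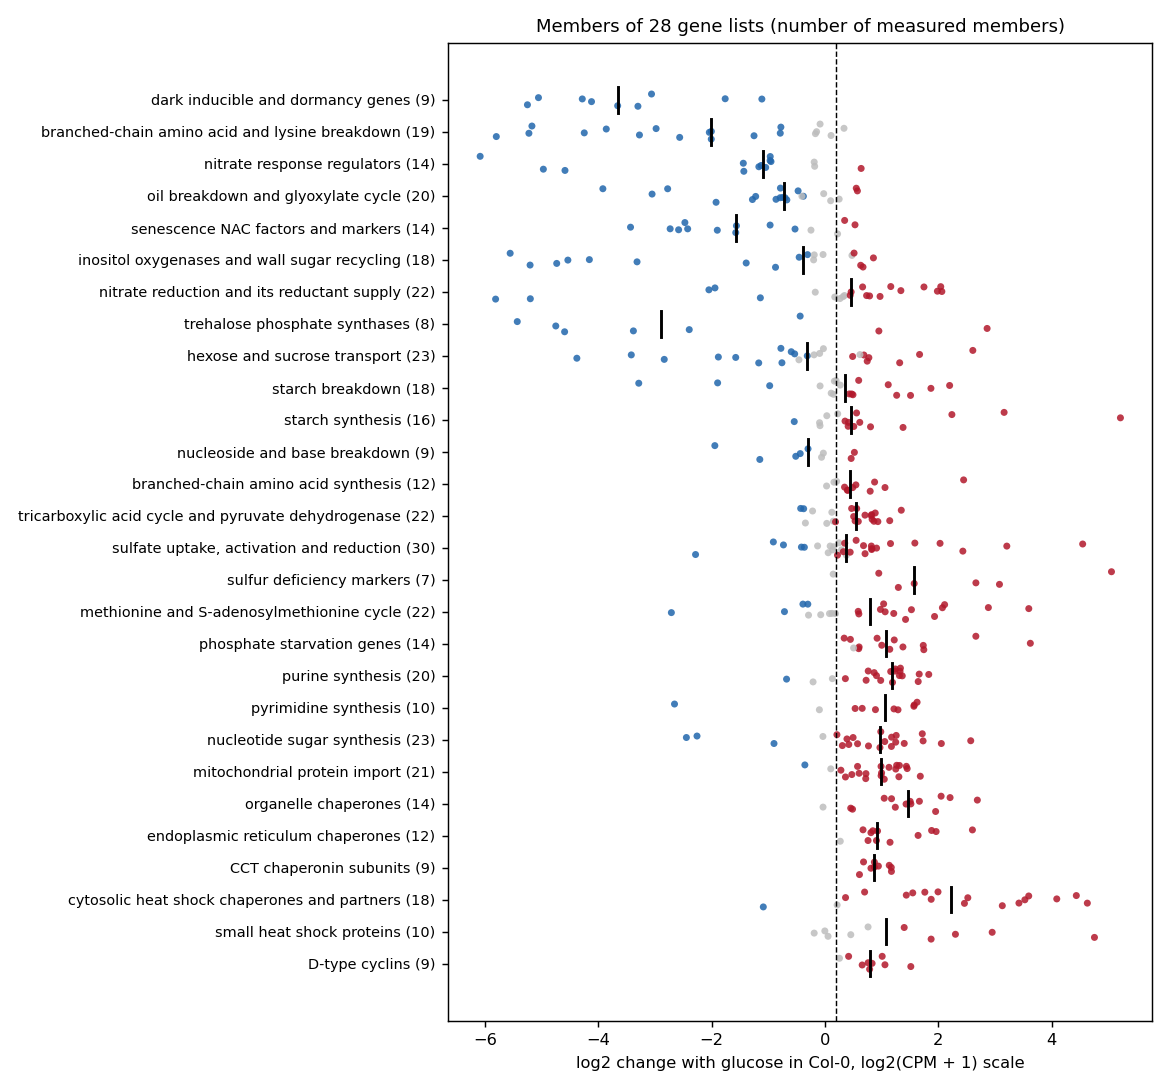
Each point is a measured member of a gene list, placed by its log2 change with glucose in Col-0, red where called higher, blue where called lower and grey where not called. Black ticks are list medians and the dashed line is the median of all genes at 0.19. All 9 dark-inducible and dormancy genes lie below −1, and all 9 chaperonin subunits lie between 0.61 and 1.17.

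The nitrate reductase genes fell, and most of the named genes of reductant supply rose. Nitrate reductase makes nitrite, which nitrite reductase turns into ammonium with electrons from ferredoxin and, in roots, the pentose phosphate pathway. NIA1 was at 2045, 2050 and 1956 CPM without glucose and 24.5, 31.0 and 55.3 CPM with it, and NIA2 at 2274, 2494 and 2410 CPM and then 46.2, 62.5 and 90.5 CPM. The nitrite reductase gene NIR1 did not pass, with 291, 279 and 278 CPM against 260, 327 and 460 CPM. The root-type ferredoxin reductase RFNR2 rose from 12.6 ± 2.18 to 44.4 ± 3.38 CPM, and RFNR1 and FD3 rose by 1.34 and 0.73. G6PD3, a plastid glucose 6-phosphate dehydrogenase, rose by 2.04, while G6PD1 fell by 1.94. Over the list of 22 genes, 12 rose and 5 fell, that is 54.5% and 22.7% against 40.6% and 19.7% of all genes. The third glucose library was the highest of its group for NIR1, UPM1 (46.1, 96.9 and 256 CPM) and G6PD3 (19.9, 24.8 and 50.2 CPM), and without it the list still had 12 rises and 5 falls.

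Of 14 nitrate response regulators 11 fell and 1 rose. BT2, a relative of BT1, was at 1066, 1204 and 1173 CPM without glucose and at 11.0, 25.6 and 151 CPM with it, again with the third library highest. BT5 fell by 4.59, and the LBD37, LBD38 and LBD39 repressors fell by 0.97, 0.95 and 1.05, with overlapping libraries for LBD39. In ammonium assimilation the cytosolic glutamine synthetase GSR 1 rose from 63.3, 53.7 and 52.3 CPM to 408, 341 and 373 CPM. The glutamate dehydrogenase GDH2, which can release ammonium, fell from 876, 949 and 978 CPM to 43.2, 42.0 and 36.5 CPM, and the plastid glutamine synthetase GS2 did not pass at −0.23.

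Many genes of sulfate assimilation and of the methionine cycle rose, and some fell. Sulfate is activated to APS, reduced by APS reductase and sulfite reductase, and built into cysteine. Of 30 measured genes of the route 17 rose and 5 fell, with 13 and 6 after TMM scaling. These are 56.7% and 16.7%, against 40.6% and 19.7% of all genes, and the list median lay 0.17 above that of all genes. The reductase APR1 was at 2.50, 1.66 and 2.46 CPM without glucose and at 92.6, 87.1 and 49.2 CPM with it, a log2 change of 4.55 ± 0.35 (limma adjusted p = 1.47e-07). APR2 rose by 3.21 and APR3 by 2.43, and in each of the 3 genes the third glucose library was the lowest of its group. The activating enzymes APS1 and AKN2 rose by 0.91 and 1.59, and the serine acetyltransferase SERAT2;1 fell by 2.29. Sulfite reductase, SIR, rose by 0.35 and was not called after TMM scaling. Of 7 sulfur deficiency markers 6 rose, among them LSU2, from 0.262 ± 0.208 to 10.1 ± 4.08 CPM, and AT5G26220, a ChaC-like protein of the family that degrades glutathione, from between 0.0573 and 0.286 CPM to 48.6, 49.1 and 21.5 CPM.

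Of 22 methionine and S-adenosylmethionine genes 13 rose and 4 fell, and their summed level went from between 6998 and 7188 CPM to between 13705 and 14821 CPM. MS2 was at 40.9, 34.9 and 39.2 CPM without glucose and at 483, 485 and 454 CPM with it. The synthetases MTO3 and MAT3, which make S-adenosylmethionine, rose by 1.93 and 2.11. SAHH2, which removes the by-product of methyl transfer, rose from 196 ± 12.2 to 1453 ± 77.6 CPM, and the adenosine kinases ADK1 and ADK2 by 1.42 and 1.06. The synthetase genes SAM1 and SAM-2 did not pass, at −0.08 and 0.12, and SAM1 was called lower after TMM scaling. The methionine-degrading lyase MGL fell from 44.5 ± 3.26 to 5.97 ± 0.841 CPM. Genes of glucosinolates, sulfur-rich defence compounds, rose in 6 of 7 cases for the aliphatic and 8 of 11 for the indole type, and the regulator MYB28 rose by 2.49.

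Phosphate starvation genes rose as well. Of 14 measured members 13 rose and 0 fell, with 10 higher and 0 lower after TMM scaling. The acid phosphatase PAP17 was at 1.71, 1.32 and 0.974 CPM without glucose and 31.6, 37.9 and 17.4 CPM with it. The transporter PHT1;4 rose from 4.55 ± 0.202 to 34.3 ± 3.15 CPM, the transport facilitator PHF1 by 1.74 and the galactolipid synthase MGD2 by 1.74. SPX1, whose protein senses phosphate status, had 77.3, 46.0 and 10.6 CPM with glucose against 9.85 to 15.5 CPM without, so its groups overlapped, and its call at 1.38 was lost after TMM scaling and, at between 0.79 and 1.39, without 4 of the 6 libraries in turn. Iron deficiency genes showed no common direction, with 5 of 15 higher and 4 lower, and the iron store gene FER1 fell by 1.90.

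Protein folding genes rose in every compartment listed. Heat shock factors control many of them under heat, and chaperones also fold newly made proteins. Of 18 cytosolic chaperones and partners 16 rose and 1 fell. Their median exceeded that of all genes by 2.04, and the sum of the list went from between 1272 and 1368 CPM to between 6999 and 7894 CPM. HSP90.1 was at 5.57, 3.09 and 4.12 CPM without glucose and at 90.1, 106 and 142 CPM with it (log2 change 4.44 ± 0.38, limma adjusted p = 4.3e-07). HSP81-2 and HSP81-3, cytosolic HSP90 genes with similar sequences whose reads may not be fully separable, rose by 3.42 and 3.53. AT3G09440, an Hsp70 family gene, rose from 80.3 ± 2.44 to 1386 ± 68.2 CPM, and HSP101, a disaggregase, by 2.46. Hsp70b did not pass at 0.21, and DREB2A, a heat and drought factor, fell by 1.09.

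The other folding systems moved together, though by less. All 9 subunits of the cytosolic chaperonin rose, by 0.61 to 1.17. In the endoplasmic reticulum 11 of 12 rose, with BIP2 from 88.5 ± 2.01 to 349 ± 35.9 CPM, while BIP3, a marker of the unfolded protein response, did not pass at 0.27. In mitochondria and plastids 13 of 14 rose, led by MTHSC70-2 at 2.69 and HSP60 at 2.21, and CPN60B did not pass at −0.03. Small heat shock proteins were uneven, with 5 of 10 higher, against 40.6% of all genes, and 0 lower. Those 5 rose by log2 1 or more, a size reached by 12.1% of all genes, and 4 were called higher after TMM scaling. AT5G51440, an HSP20-like gene, went from 0.928, 0.515 and 1.26 CPM to 50.2, 48.4 and 50.7 CPM, whereas HSP17.4 did not pass. Of 17 heat shock factors 5 rose and 4 fell, that is 29.4% and 23.5% against 40.6% and 19.7% of all genes. After TMM scaling 5 rose and 7 fell. With HSFA2 included, 3 factors rose by log2 1 or more, and the other rises were smaller than that of HSFA2. HSFB4 and AT-HSFB2B rose by 0.90 and 1.19, and HSFA6A fell from between 1.64 and 2.63 CPM to between 0 and 0.0724 CPM.

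Mitochondrial and nucleotide genes followed the rises. Of 21 mitochondrial import genes 19 rose and 1 fell, with the small chaperone of the intermembrane space TIM13 at 1.68 and the outer membrane receptor TOM20-2 at 1.27. In the tricarboxylic acid cycle 15 of 22 rose and 2 fell, the citrate synthase ATCS by 0.82 and the malate dehydrogenase mMDH2 by 1.35, while SDH2-1, a succinate dehydrogenase subunit, fell by 0.43. Purine synthesis rose in 17 of 20 genes, whose median exceeded that of all genes by 0.99. PUR5 was at 20.3, 15.8 and 20.8 CPM without glucose and at 60.3, 62.2 and 62.9 CPM with it, and PUR4 and AT2G35040, which catalyse earlier and later steps, rose by 1.16 and 1.36. Pyrimidine synthesis rose in 8 of 10 genes, among them CARB, PYRB and PYRD at 1.22, 1.57 and 1.57. The exception was AT1G30820, a CTP synthase family gene, from 77.8, 78.8 and 79.2 CPM to 10.2, 12.4 and 12.4 CPM. Of 9 genes for nucleoside and base breakdown 5 fell and 2 rose, with the allantoate hydrolase AAH at −1.94.

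The machinery of ribosome production rose around RNA polymerase I. Of 16 subunits of polymerases I and III 15 rose. NRPA1, the largest subunit of polymerase I, was at 39.5, 32.5 and 35.1 CPM without glucose and at 183, 173 and 167 CPM with it. Its polymerase III counterpart NRPC1 rose by 0.84. Of 67 nucleolar and ribosomal RNA processing genes 51 rose and 5 fell. NOP56, shown above with its promoter, was at 35.0, 29.6 and 40.6 CPM and then at 187, 178 and 191 CPM, and the nucleolin NUC-L1 rose by 2.03. Translation factors rose in 32 of 40 cases. Aminoacyl-tRNA synthetases had 22 rises and 3 falls among 46 genes, but 18 and 11 after TMM scaling, and their median lay 0.08 above that of all genes. Proteasome subunits had 11 rises and 0 falls of 36, against 4 and 7 after TMM scaling, so their direction depended on the scaling. The same held for histones, with 17 and 8 of 40 as deposited and 9 and 13 after TMM scaling.

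Oil breakdown genes fell in most cases. Of 20 genes of oil breakdown and the glyoxylate cycle 14 fell and 2 rose. The lipase SDP1, which starts the breakdown of stored oil, was at 95.8, 103 and 113 CPM without glucose and at 14.0, 14.5 and 14.3 CPM with it, and the oxidase ACX2 fell by 3.05. The pyruvate orthophosphate dikinase PPDK fell from 419 ± 8.50 to 26.8 ± 1.66 CPM. The glyoxylate cycle enzymes ICL and MLS fell by 1.22 and 1.28. Without the first library without glucose, which held the seed storage reads, 10 of the 20 genes were called lower, and MLS was not, with a log2 change of −1.03. MLS also lost its call without the third library without glucose, at −1.15. Fatty acid synthesis showed no common direction: 8 of 21 genes were called higher and 1 lower, but 4 and 10 after TMM scaling, and the activator WRI1 and the thioesterase FaTA rose under both by 1.42 and 2.27 as deposited.

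Wall sugar recycling fell and nucleotide sugar synthesis rose. Of 18 recycling genes 10 fell and 4 rose, and their sum dropped from between 5611 and 6218 CPM to between 806 and 836 CPM. BGAL4, a beta-galactosidase, was at 588, 646 and 689 CPM and then at 17.3, 13.8 and 18.3 CPM, and the beta-xylosidase BXL1 fell by 4.54. The xylosidase XYL1 rose by 0.85. Of 23 nucleotide sugar genes 19 rose and 3 fell. RHM1, which makes UDP-rhamnose for pectin, was at 84.1, 80.8 and 88.4 CPM without glucose and at 492, 525 and 504 CPM with it, and the glucuronate epimerase GAE6 rose by 2.05. The UDP-glucose epimerases UGE1 and UGE3 fell by 2.45 and 2.26, and their relatives UGE2 and RHD1 rose by 1.05 and 1.18.

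Growth and hormone genes rose in part. Of 9 D-type cyclins, which start the cell cycle in response to sugar and hormones, 8 rose, with CYCD3;3 from 24.4 ± 2.65 to 71.5 ± 4.01 CPM. Of 11 inhibitors of cyclin-dependent kinases 7 also rose, among them KRP6 at 1.36 and ICK5 at 1.52. SAUR genes, which auxin induces during cell expansion, rose in 27 of 43 cases and fell in 8. In gibberellin metabolism the deactivating oxidase GA2OX8 rose from between 0.500 and 1.03 CPM to 11.5, 12.1 and 9.96 CPM, and the synthesis genes GA20OX2 and GA3OX1 by 1.13 and 1.05. The brassinosteroid synthesis genes CPD and ROT3 fell by 1.64 and 1.08. FCS-like zinc fingers, a family whose members bind SnRK1 subunits, rose in 9 of 14 cases. AT4G17670 of this family was at 0.571, 0.344 and 0.286 CPM without glucose and at 37.6, 27.3 and 13.4 CPM with it.

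Among receptor kinases and a list of immune genes most calls were rises, and among senescence regulators falls. Other defence families went differently: of 48 WRKY factors 15 rose and 15 fell, with 14 and 22 after TMM scaling, and of 22 CC-NBS-LRR resistance genes 0 rose and 5 fell by log2 1 or more. Of 149 leucine-rich repeat receptor-like kinases 90 rose and 7 fell, with 76 and 18 after TMM scaling, and of 24 cysteine-rich ones 16 rose and 2 fell. FRK1, which bacterial flagellin induces, was at 0.143, 0.172 and 0.172 CPM without glucose, at or under the floor of 3 reads, and at 29.8, 14.9 and 23.3 CPM with it. Of 21 immune genes 14 rose and 1 fell, with 11 and 3 after TMM scaling. The flagellin receptor FLS2 itself did not pass, at −0.44. WRKY53 and WRKY60 rose by 2.15 and 1.85, while WRKY33 and WRKY40, at 0.71 and −0.95, did not pass and varied between libraries. WRKY40 and FLS2 were called lower after TMM scaling, at −1.15 and −0.64. Of 14 senescence factors and markers 10 fell and 2 rose, with 11 and 0 after TMM scaling. NAP, an activator of leaf senescence, fell from 6.45 ± 0.682 to 0.388 ± 0.136 CPM, and NAC3 from 20.3 ± 3.57 to 0.971 ± 0.376 CPM.

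Among photosynthesis genes falls outnumbered rises. Of 60 genes for photosystems, antenna proteins and the small subunit of RuBisCO 18 fell and 1 rose, but 35 fell after TMM scaling. LHCB2.3 fell from 360, 357 and 337 CPM to 139.5, 138 and 95.3 CPM, and CAB2 from between 5780 and 6152 CPM to between 3527 and 3722 CPM. RBCS1A did not pass, at −0.05. Chlorophyll synthesis genes did not pass in 10 of 16 cases, and the chloroplast development factor GPRI1 rose by 2.48. Of 8 chlorophyll breakdown genes 5 fell, with NYC1 at −1.23. Aquaporins, which pass water through membranes, fell in 12 of 25 cases and rose in 6, with PIP1C at −1.73 and PIP1;4 at 1.72. Photorespiration enzymes stood among the large losses in CPM, the aminotransferases GGT1 and AGT falling by 0.95 each.

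Grouped by annotated product, 84 families held 20 or more genes. The highest shares called higher by log2 1 or more were 52.2% of 23 snoRNA genes, 48.8% of the SAUR-like family, 40.0% of 20 pectin methylesterase inhibitor genes, 35.6% of 45 pectin lyase-like genes and 34.8% of 23 WD-40 repeat genes, against 12.1% of all genes. After TMM scaling 8 of the 23 snoRNA genes and 4 of the 20 inhibitor genes were called higher by that size. Annotation wording splits some of these families. Under the other wording, 22.7% of 22 pectin methylesterase inhibitor genes were called higher and 4 of the 22 lower, and 17.9% of 112 WD40 repeat genes were called higher, by log2 1 or more. Reads on snoRNA genes and on overlapping host genes cannot be told apart without the strand setting, which is not given in the sources used here. The highest shares called lower by that size were 34.6% of 26 polyketide cyclase and lipid transport genes, 23.1% of 39 thioredoxin superfamily genes and 22.7% of 22 CC-NBS-LRR resistance genes, against 6.04% of all genes.

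The response was larger in Col-0 than in ein2-5 for many of these genes. Subtracting the Col-0 response from that of ein2-5 gave a difference called by limma in 18.8% of all genes, positive in 5.49% and negative in 13.3%. Among nucleolar and ribosomal RNA processing genes the difference was negative in 41 of 67, so their rise was smaller in the mutant, and among branched-chain amino acid and lysine breakdown genes it was positive in 11 of 19, so their fall was smaller. Of the cytosolic chaperones 9 of 18 had a negative difference, and of proteasome subunits 0 of 36 passed in either direction. The seed markers summed to between 151 and 3506 CPM in the ein2-5 libraries and to at most 165 CPM in those of Col-0, and their part in this difference was not tested.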

How the data were processed

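RNA was measured by sequencing in 12 seedling libraries, 3 per genotype and condition, from RNA that the labels call total. The deposited table gives CPM per gene; per the submitters' processing notes, TopHat, HTSeq and the TAIR10 build were used, and versions, strand setting and annotation release are not given in the sources used here. In all 12 columns 100% of the 234264 values were whole multiples of 1 read, within 0.01 reads, so reads were recovered by a script, and library totals are those recovered reads. Of the locus codes 19352 matched RefSeq and 170 did not, and 0 value columns were left unused.

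Log2(CPM + 1) values were fitted with limma 3.58.1 (trend, all 12 libraries, 4 groups, R 4.3.3), with Benjamini-Hochberg adjustment over all 19522 genes and no filter, after tests on simulated data. Alternatives were TMM scaling, edgeR 4.0.16 and DESeq2 1.42.0 on recovered reads, pseudocounts of 0.25 and 5 CPM, a filter at a mean of 1 CPM, Col-0 libraries alone, a replicate block and leaving out each library. edgeR called 6006 genes higher and 5843 lower. Precision is limited by 3 libraries per group.

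Genes named are the 15 largest rises and 15 largest falls with a symbol, a mean of 5 CPM or more on the higher side and groups that did not overlap, the 10 largest gains and losses in CPM, and for each list up to 6 members with the largest changes plus members needed to describe its steps. Families are products shared by 20 or more genes. Promoters are the 250 bases before the RefSeq gene start. The members and lists were chosen with earlier results of these data known.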

Additional observations from a re-analysis of the deposited data

Results flagged for a closer look

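Of the 30 genes with the largest rises and falls, 26 had a smaller response in ein2-5 than in Col-0 by limma's test of the difference itself, with adjusted p between 2.32e-05 and 0.0168. The genes were chosen for large changes in Col-0, and the difference subtracts those same values, so the choice favours a smaller response in ein2-5. Groups of 3 libraries are too small to look for single libraries that stand apart. Differences below are ein2-5 minus Col-0 in log2(CPM + 1). A difference can lie in the level without glucose as well as with it. GPT2 stood at 0.857, 0.401 and 0.516 CPM without glucose in Col-0 and at 4.32, 3.20 and 5.92 CPM in ein2-5. With glucose it stood at 55.9, 73.0 and 47.0 CPM and at 77.0, 73.2 and 78.5 CPM. FRK1 differed with glucose, where ein2-5 stood at 0.368, 0.681 and 0 CPM. MIOX4 stood at 0.307, 0.454 and 0.0872 CPM with glucose in ein2-5, so the size of its difference depends on the pseudocount.

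Among the rises, the difference was −2.42 for HSFA2, −1.87 for HSP70, −1.58 for Hsp70-2, −1.75 for HSP81-3 and −1.84 for HSP81-2, all heat shock genes. It was −3.93 for FRK1, whose log2 change was 4.30 ± 0.22 (SE) in Col-0 and 0.37 ± 0.22 in ein2-5. It was −2.22 for the receptor kinase CRK12, −2.80 for the root growth factor RGF9 and −2.43 for the transporter ABCG8. For GPT2, MS2 and ESM1 it was −1.37, −1.48 and −1.61.

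Among the falls, the difference was 3.27 for NIA1 and 2.94 for NIA2, the nitrate reductases, 2.15 for BT1 and 2.47 for GAT1_2.1. For the amino acid enzymes BCAT-2, THA1 and MCCA it was 2.41, 2.73 and 1.89. CYP81D11 had 3.41, BGAL4 2.45, TPS11 1.96, MIOX4 1.80, DIN10 1.72, GDPD2 1.71 and SEN1 1.44. All 26 passed under TMM scaling and without each library in turn, and 22 passed in edgeR, 24 in DESeq2 and 25 with a pseudocount of 5 CPM. The seed markers were higher in ein2-5 (151 to 3506 CPM) than in Col-0 (1.20 to 165 CPM), and their part in these differences was not tested.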

How the results depend on the processing

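The number of genes called lower, 3850, was 5842 after TMM scaling, 5843 in edgeR and 5853 in DESeq2, and the number called higher, 7925, was 5969, 6006 and 5717. Genes lower by log2 1 or more numbered 1179, and 1911 in edgeR and 1979 in DESeq2. Genes higher by log2 1 or more numbered 2371, and 1237 with a pseudocount of 5 CPM. Without each library in turn, genes called higher ranged from 7081 to 8162, lower from 3390 to 4071, higher by log2 1 or more from 2254 to 2569, lower by that size from 1148 to 1209, and different between genotypes from 2496 to 4970. With the Col-0 libraries alone 8352 genes were called higher and 4273 lower, and the difference between genotypes could not be computed. Deviations of libraries with the same replicate number had correlations of 0.159, −0.063 and 0.348. Those with different numbers ranged from −0.390 to 0.235. The main fit did not use the numbers. With a replicate block more genes were called, 8298 higher, 4036 lower and 4384 different, the last against 3678 without the block. Of 373 genes followed, those named in the text and the largest changes of each list, 341 stayed on their side of the threshold under every alternative run and 32 crossed it, either way, under at least 1, and 0 called genes reversed. NIR1 and UPM1 were called higher without the first glucose library, at 0.46 and 0.93, and WRKY33 without the third library lacking glucose, at 1.36. List medians moved for 45 of 80 lists after TMM scaling. In 100 bases before the start, 10.9% of falling genes held the I-box against 5.35% of all. Genes near the floor of 3 reads have changes whose size depends on the pseudocount.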
